A study of Mus musculus with 8 samples.

Results

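Tumor neutrophils were studied in tumors that the mouse pancreatic cancer line FC1242 formed in the liver and in the pancreas. They were picked from the single-cell data by a rule on their transcripts and numbered 247 of 9895 called barcodes: 91 of 7618 in the liver tumor library and 156 of 2277 in the primary tumor library. A barcode was called at 1500 UMIs (counted transcript molecules) or more, given 200 or more genes and no more than 10% of UMIs from mitochondrial genes. Per 10000 UMIs, a neutrophil had to hold at least 20 UMIs of S100a8 plus S100a9, under 10 of C1qa, C1qb and C1qc together and under 20 of Krt8, Krt18 and Krt19 together. It also needed a UMI of Csf3r, Cxcr2 or Il1r2 and no UMI of Cd3e. These genes chose the cells, so their levels are given as a description.

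The liver tumor group and the primary tumor group both consisted of C57BL/6 mice that received 100000 FC1242 cells (a line named KPC in the labels), and both were harvested after 3 weeks. The injection was directed to the liver in the liver group and to the pancreas in the primary group. Sorted CD45+ cells gave 1 10x Genomics library per site, and whole tumor tissue gave 3 bulk RNA-seq libraries per site. Age, sex and the number of mice behind each single-cell library are not given in the labels, both groups rest on a single cell line, and nothing in the labels says whether the bulk libraries came from separate mice, so p-values measure the spread between these libraries only.

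Neutrophils are short-lived granulocytes that leave the bone marrow under the growth factor G-CSF, which acts through Csf3r, and follow CXC chemokines such as Cxcl1, Cxcl2, Cxcl3 and Cxcl5 through the receptor Cxcr2. They make granule proteins while they mature in the marrow, in the order azurophil, specific and gelatinase granules. In tissue they can release interleukin-1, more chemokines and reactive oxygen, and in tumors they are known for both tumor-restraining and T-cell-suppressing roles.

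The single-cell libraries held 161890665 UMIs (liver tumor) and 82083967 UMIs (primary tumor) over 6794880 listed barcodes each, and the bulk libraries held between 27481390 and 36743247 reads. Neutrophils had few transcripts: the median was 2301 UMIs and 1111 genes in the liver library and 2743.5 UMIs and 1127 genes in the primary library, against 6866 and 12723 UMIs in the other called barcodes. Their summed UMIs, on which all levels below rest, were 253075 in the liver library and 502144 in the primary library. The libraries shared 7 called barcodes, none of them a neutrophil. With 1 library per site there is no replicate check of any single-cell difference, and the intervals given (95%, exact) cover counting error only.

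How many liver neutrophils were found depended on the keratin limit. Of the barcodes that met every other criterion, 213 of 304 in the liver library were left out by it, against 1 of 157 in the primary library. Those 213 barcodes held a median of 253 UMIs of S100a8 plus S100a9 and 29.4 keratin UMIs per 10000. Free RNA, read from barcodes of at most 100 UMIs, held 40.04 keratin UMIs per 10000 in the liver library and 7.56 in the primary library. A keratin UMI was present in 90 of 91 liver neutrophils and in 61 of 156 primary neutrophils. Just inside and just outside the limit stood values of 19.8 and 20.3 in the liver library, and of 16.0 and 44.4 in the primary library. For S100a8 plus S100a9 the values just outside and just inside the minimum were 19.4 and 28.8 in the liver library and 18.1 and 21.5 in the primary library.

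**Figure D1:**
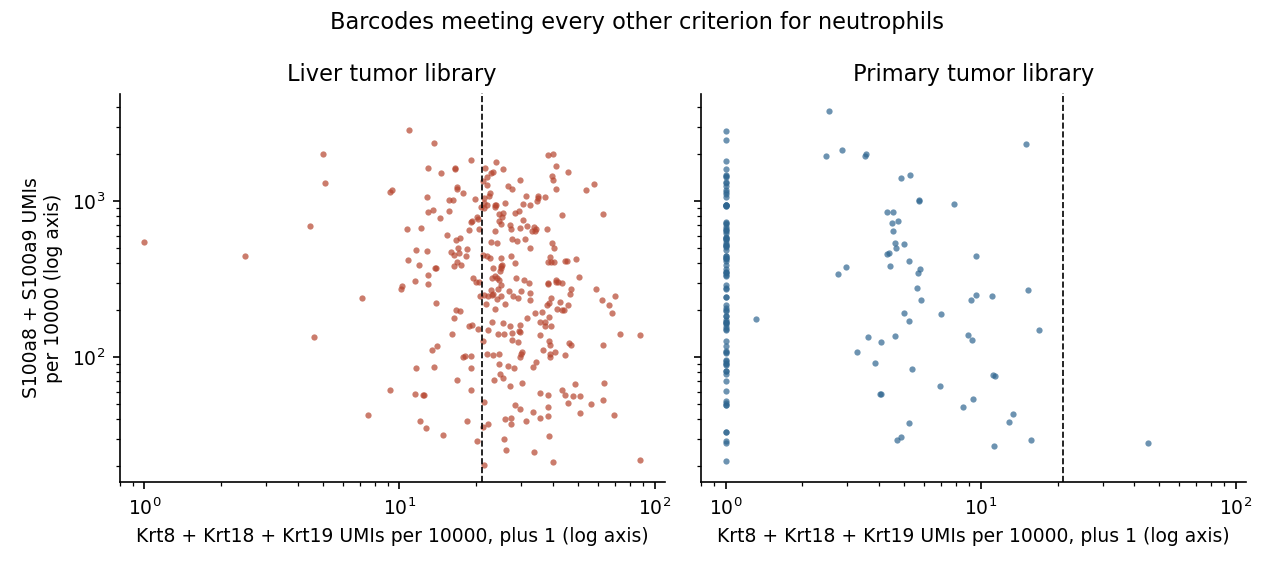
S100a8 plus S100a9 (vertical) against Krt8 plus Krt18 plus Krt19 (horizontal, plus 1), both in UMIs per 10000 on log axes, for barcodes meeting every other criterion in the liver tumor library (left) and the primary tumor library (right); the dashed line is the keratin limit. The limit runs through the liver barcodes, 213 of which lie beyond it, and passes 1 primary barcode.

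Neutrophils made up 1.19% of called barcodes in the liver library (interval 0.963 to 1.46%) and 6.85% in the primary library (5.85 to 7.97%). Over non-epithelial barcodes, those with under 20 keratin UMIs per 10000, the shares were 2.62% (2.12 to 3.21%) and 7.83% (6.69 to 9.09%). With the keratin limit at 40, a value chosen after seeing the data, they became 5.78% of non-epithelial barcodes in the liver library and 7.45% in the primary library. The sort for CD45 and the free RNA can both move these shares, so no difference in neutrophil abundance is read from them.

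The label was checked against 8 neutrophil markers that the rule did not use. They summed to 9211 CPM (counts scaled to the summed UMIs of the cells) in liver neutrophils and 9714 CPM in primary neutrophils, against 181 and 146 CPM in the other called barcodes and 133 and 163 CPM in free RNA, and none was at 0. More than 1 of the 8 was held by 83 liver neutrophils and 150 primary neutrophils. A sum rests most on its abundant members, and some neutrophil genes outside the rule were seen in few cells. With every cell thinned to equal depth, Mmp8 was held by 9 of 91 liver and 21 of 156 primary neutrophils. Ly6g was held by 5 of 42 liver neutrophils with a Retnlg UMI and 0 of 49 without. In primary neutrophils Ly6g was held by 2 of 56 with Retnlg and 0 of 100 without. The 10 genes with the largest ratio over other called barcodes were Retnlg, Il1f9, S100a9, Gm5483, S100a8, Stfa2l1, G0s2, Asprv1, Lcn2 and Cxcr2, of which the rule used S100a9, S100a8 and Cxcr2. All 4 NK markers were at 0 in both libraries, and the T and the B markers each summed to at most 11.9 CPM. The 8 macrophage markers summed to 2339 CPM in liver neutrophils and 1316 CPM in primary neutrophils, under the free-RNA levels of 11774 and 9758 CPM. The 6 epithelial markers summed to 1375 CPM in liver neutrophils, against 211 CPM in primary neutrophils, also under free RNA (4191 and 791 CPM). The 6 monocyte markers summed to 743 CPM in liver neutrophils and 179 CPM in primary neutrophils, against 875 and 636 CPM in free RNA. In liver neutrophils this sum lay nearer to free RNA than the macrophage and epithelial sums did. More than 1 monocyte marker was held by 18 liver neutrophils and 3 primary neutrophils. The source of these monocyte transcripts was not tested. The 7 dendritic markers summed to 1063 CPM in liver neutrophils and 2545 CPM in primary neutrophils, against 3212 and 4685 CPM in free RNA. Of the dendritic markers' UMIs in primary neutrophils, 77.7% lay in 1 barcode, which held 294 of 378 UMIs of H2-Ab1. That barcode met the rule and was kept among the 156 primary neutrophils. The deepest primary neutrophil held 31783 of their 502144 summed UMIs. The part of these transcripts in the differences below was not tested beyond the values given beside them.

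Of 30 listed neutrophil genes 21 reached a mean of 50 CPM and were not in the rule. Of these 7 were at least 2-fold lower and 3 at least 2-fold higher in liver neutrophils, with a median log2 ratio of -0.79. Over all genes with that mean, 13.6% were lower and 12.6% higher by that measure. The 3 higher genes were Prtn3, Mpo and Elane, whose liver UMIs lay mostly or all in a single barcode. Of the 7 lower genes, Camp had all its primary UMIs in a single barcode. Ngp and Ltf, also among the 7, changed sign without barcodes over 10000 UMIs. Levels of the genes on which the rule selected are a description only, since the same limits chose the cells in both libraries. S100a8 and S100a9, the calcium-binding pair that forms calprotectin, had 24823 and 32891 CPM in liver neutrophils and 30798 and 30696 CPM in primary neutrophils. Csf3r, the G-CSF receptor, had 1106 CPM in liver and 1330 CPM in primary neutrophils, and Cxcr2 had 857 and 898 CPM. Il1r2, the decoy receptor for interleukin-1, had 632 CPM in liver neutrophils and 2069 CPM in primary neutrophils. Of the genes the rule did not use, Mmp9, the gelatinase of the last granules, had 865 CPM in liver and 820 CPM in primary neutrophils. Retnlg, a secreted protein of mouse neutrophils, had 5492 CPM in liver neutrophils and 2884 CPM in primary neutrophils (log2 ratio 0.93, 0.82 to 1.04, and 1.66 with at most 5% mitochondrial UMIs). Hdc, which makes histamine, had 506 and 1486 CPM. Lcn2, the iron-scavenging lipocalin, had 1146 and 2035 CPM.

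Early granule genes lay in single barcodes. All 177 UMIs of Elane, 57 of Mpo and 46 of Ctsg, the azurophil proteases and myeloperoxidase, came from 1 liver barcode, which also held 323 of 336 UMIs of Prtn3. Primary neutrophils had no UMI of Elane, Mpo or Ctsg. In the primary library 1 barcode held all 113 UMIs of Camp and 359 of 387 UMIs of Ngp, genes of specific granules. Without barcodes over 10000 UMIs, of which each library had 2, the log2 ratio of Prtn3 turned to -0.37, against 4.68 with them, that of Ngp to 0.73, against -3.08, and that of Ltf to 0.23, against -2.99. The 6 genes of the NADPH oxidase, the enzyme of the oxidative burst, had a median log2 ratio of -0.07, and none was past 2-fold. Among them Ncf1 had 506 CPM in liver neutrophils and 643 CPM in primary neutrophils.

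Chemokine genes were lower in liver neutrophils than in primary neutrophils. Over all 2956 genes with a mean of at least 50 CPM, 373 (12.6%) were at least 2-fold higher and 403 (13.6%) at least 2-fold lower in liver neutrophils, and the median log2 ratio was -0.01. Of the 373, 184 stood below the free-RNA level of the liver library. Of the 403, 6 stood below the free-RNA level of the primary library. Of 14 chemokine genes 8 reached that mean, and of these 5 were at least 2-fold lower and 1 at least 2-fold higher in liver neutrophils, with a median of -1.74. The same list had a median of -0.10 in C1q-high macrophages of the same libraries.

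Cxcl2, a ligand of Cxcr2, had 2734 CPM in liver neutrophils and 11511 CPM in primary neutrophils (log2 ratio -2.07, -2.19 to -1.96). After each cell was thinned to 1500 UMIs, 49.5% of liver and 85.3% of primary neutrophils held a Cxcl2 UMI. Cxcl3, a related ligand, had 115 CPM in liver neutrophils and 1545 CPM in primary neutrophils (-3.75, -4.34 to -3.22), and 3.30% and 32.1% of cells held a UMI. In T cells, which should lack both, Cxcl2 was seen in 1.87% (liver) and 3.51% (primary) of thinned barcodes and Cxcl3 in none. A single barcode held 202 of the 692 liver UMIs of Cxcl2 and 14 of the 29 of Cxcl3, and without the top barcode of each library the log2 ratios were -2.51 and -4.56. Median depths of the T cells were 6820 and 10712 UMIs before thinning.

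Ccl3 and Ccl4, inflammatory chemokines of the CC class, had 814 and 142 CPM in liver neutrophils and 2519 and 2483 CPM in primary neutrophils. Ccl3 was held by 29.7% of liver and 44.9% of primary neutrophils, but also by 22.4% and 24.6% of T cells. Ccl4 was held by 12.1% and 23.7% of neutrophils and by 24.3% and 30.7% of T cells, so its shares are not above those of T cells, which can express it. The exception past 2-fold was Ccl9, with 411 CPM in liver and 21.9 CPM in primary neutrophils, against 256 and 93.8 CPM in free RNA. Cxcl1 had no UMI in neutrophils of either library, which allows up to 3.30% of 91 and 1.92% of 156 cells to hold a UMI and does not limit the share that express it.

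The 213 liver barcodes beyond the keratin limit, which the rule left out, showed the low detection as well. Among them Cxcl2 was held by 48.4%, Cxcl3 by 7.51%, Ccl3 by 19.7% and Ccl4 by 9.86% of thinned barcodes.

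**Figure D2:**
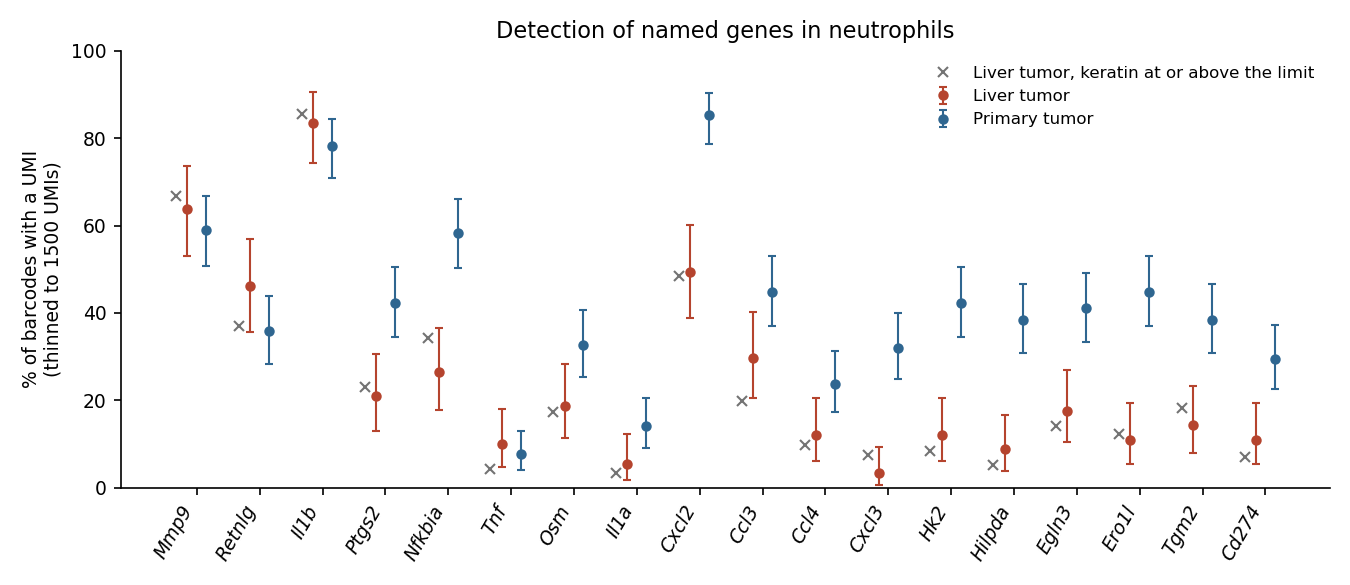
Share of neutrophil barcodes with a UMI of each named gene after thinning to 1500 UMIs, liver tumor (red) left of primary tumor (blue), with exact 95% binomial intervals; crosses are the 213 liver barcodes at or above the keratin limit. Mmp9 and Il1b lie close together at both sites, while Cxcl2 stands at 49.5% (liver tumor) and 85.3% (primary tumor).

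The promoter windows of Cxcl2 and Cxcl3 are shown because both genes were lower in liver neutrophils (RefSeq, GRCm38.p6, 250 bases before to 50 after the start, plus strand). Cxcl2 lies at chr5:90903649-90903948 and Cxcl3 at chr5:90785851-90786150. Capitals mark the NF-kB type motif (GGGA, any 2 bases, then TTCC), searched on both strands, where 2 overlapping matches merge into a single run in each window.
Cxcl2: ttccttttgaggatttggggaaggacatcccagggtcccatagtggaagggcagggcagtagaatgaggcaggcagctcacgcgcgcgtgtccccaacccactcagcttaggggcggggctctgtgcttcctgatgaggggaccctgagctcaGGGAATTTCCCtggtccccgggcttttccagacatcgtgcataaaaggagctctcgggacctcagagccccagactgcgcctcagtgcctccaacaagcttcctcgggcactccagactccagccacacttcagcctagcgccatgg
Cxcl3: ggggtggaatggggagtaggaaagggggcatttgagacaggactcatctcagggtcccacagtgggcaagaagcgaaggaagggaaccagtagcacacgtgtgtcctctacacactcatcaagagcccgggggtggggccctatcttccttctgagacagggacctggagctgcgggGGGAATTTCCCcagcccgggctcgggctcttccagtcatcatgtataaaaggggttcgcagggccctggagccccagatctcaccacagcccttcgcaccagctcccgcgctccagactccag
The motif occurs in 1.47% of all 32851 windows in the table, and in 1.63% of its 27025 genes. Of the 10 chemokine genes with a window, 4 hold it: Cxcl1, Cxcl2, Cxcl3 and Cxcl10. The Cxcl3 window also holds 2 matches of ACGTG, in lower case here. A match is a description of letters and says nothing of binding in these cells.

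Cytokine genes and their feedback genes were lower too. Of 19 listed, 14 reached a mean of 50 CPM, and of these 9 were at least 2-fold lower and none at least 2-fold higher in liver neutrophils, with a median log2 ratio of -1.32 (macrophages -0.89). Il1a, the alarmin form of interleukin-1, had 43.5 CPM in liver and 253 CPM in primary neutrophils. Il1b, the secreted form, differed little, with 3955 and 5632 CPM (-0.51), and was held by 83.5% and 78.2% of cells. Il1rn, the natural blocker of the interleukin-1 receptor, had 273 and 1135 CPM. Osm, oncostatin M, had 186 and 906 CPM. Ptgs2, the inducible prostaglandin enzyme, had 340 and 970 CPM, and Nfkbia, the NF-kB inhibitor, had 530 and 1201 CPM. Their log2 ratios of -1.51 and -1.18 became -4.16 and -0.36 with at least 3000 UMIs per barcode, and that of Ptgs2 was -2.54 with at most 5% mitochondrial UMIs. Tnf had 90.9 and 108 CPM.

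The hypoxia and glycolysis list went one way: of 27 members 26 reached a mean of 50 CPM, and each of these had a ratio below 0, 20 of them at least 2-fold lower and none at least 2-fold higher in liver neutrophils. The median log2 ratio was -1.41, against -0.59 in macrophages, -0.35 in T cells and -1.13 in epithelial barcodes. Ero1l, an oxidase of the endoplasmic reticulum, had 90.9 CPM in liver and 978 CPM in primary neutrophils (-3.43, -4.10 to -2.83). Hk2, hexokinase of the first step of glycolysis, had 98.8 and 763 CPM, and 12.1% and 42.3% of cells held it. Hilpda, a lipid droplet protein induced by hypoxia, had 107 and 745 CPM. Egln3, an oxygen-sensing prolyl hydroxylase, had 107 and 502 CPM, and 17.6% and 41.0% of cells held it. Slc2a1, a glucose transporter, had 94.8 and 362 CPM. Abundant glycolytic genes differed less, as with Gapdh at 1592 and 2802 CPM (-0.82) and Pkm at -0.30.

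The windows of Hk2 (chr6:82774405-82774704, minus strand) and Egln3 (chr12:54203825-54204124, minus strand) are shown as examples of this list. Capitals mark ACGTG, the core letters of a hypoxia response element, on either strand.
Hk2: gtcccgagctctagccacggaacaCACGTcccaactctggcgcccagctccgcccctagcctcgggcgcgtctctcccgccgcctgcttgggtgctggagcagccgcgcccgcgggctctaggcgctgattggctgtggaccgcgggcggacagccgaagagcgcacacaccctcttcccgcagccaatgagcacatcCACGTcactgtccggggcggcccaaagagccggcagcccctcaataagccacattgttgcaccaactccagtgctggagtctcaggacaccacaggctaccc
Egln3: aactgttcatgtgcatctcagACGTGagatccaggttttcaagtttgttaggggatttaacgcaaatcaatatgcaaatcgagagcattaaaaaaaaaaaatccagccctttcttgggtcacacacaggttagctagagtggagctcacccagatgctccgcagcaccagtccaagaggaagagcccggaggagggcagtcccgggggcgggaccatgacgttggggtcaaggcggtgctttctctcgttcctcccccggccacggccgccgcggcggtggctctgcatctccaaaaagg
Of 23 list genes with a window, 18 (78.3%) hold ACGTG, against 21.8% of 27025 genes in the table. Several of these genes were put on the list because they are known hypoxia targets.

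Immediate-early and survival genes were lower in the same way. Of 23 transcription factors 20 reached a mean of 50 CPM, and 11 were at least 2-fold lower and 1 at least 2-fold higher, with a median of -1.06. Nfil3 had 107 CPM in liver and 534 CPM in primary neutrophils, and Cebpb, a driver of emergency granulopoiesis, had 2185 and 4949 CPM. Of 15 survival genes 12 reached it, and 5 were at least 2-fold lower, among them Mcl1, on which neutrophil survival depends, with 1691 and 3674 CPM. Of 14 genes known to respond to tissue dissociation, 9 were at least 2-fold lower, with a median of -1.15, among them Fos (1308 and 2716 CPM). Several immediate-early genes are on both lists. Handling of the tissue and site cannot be told apart with 1 library each. This holds for the chemokine, cytokine and other single-cell differences as well.

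**Figure D3:**
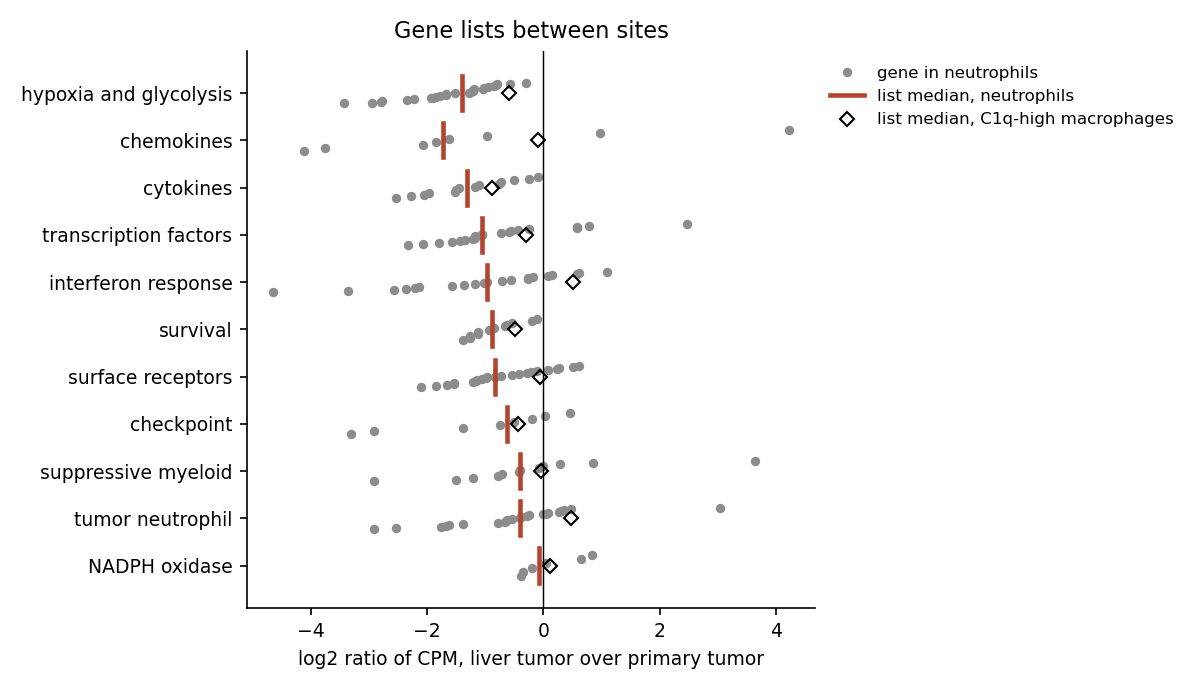
Log2 ratio of CPM, liver tumor over primary tumor, for the genes of 11 lists in neutrophils (grey), with the list median in neutrophils (red bar) and in C1q-high macrophages (diamond). All hypoxia and glycolysis genes lie left of 0, and the interferon list has a median of -0.97 in neutrophils and 0.50 in macrophages.

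The interferon list had medians of opposite sign in neutrophils and macrophages: of 28 members 21 reached a mean of 50 CPM, of which 10 were at least 2-fold lower and 1 at least 2-fold higher in liver neutrophils (median -0.97), and the median was 0.50 in macrophages. The difference between the cell types was not tested. Over 16 settings the neutrophil median lay between -1.47 (thinned to 1500 UMIs) and -0.23 (at most 5% mitochondrial UMIs). Rsad2, an antiviral enzyme, had 51.4 CPM in liver and 532 CPM in primary neutrophils, but 43.1% of its primary UMIs lay in 1 barcode and 9 of its 13 liver UMIs in another. Isg15, the ubiquitin-like interferon product, had 198 and 588 CPM.

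Of 28 surface receptors 23 reached that mean and were not in the rule, and 9 of these were at least 2-fold lower and none at least 2-fold higher in liver neutrophils (median -0.83). Cxcr4, which retains neutrophils in the marrow and marks aged cells, had 111 CPM in liver and 476 CPM in primary neutrophils. Cd274, which encodes PD-L1, the ligand that restrains T cells, had 67.2 and 510 CPM (-2.92, -3.73 to -2.22) and was held by 10.99% and 29.5% of cells. Of 18 checkpoint genes 8 reached that mean, and 3 of these were at least 2-fold lower. Btla, named in the title of the study, had no UMI in liver neutrophils and 6 in primary neutrophils, all in a single cell. Tgm2, transglutaminase 2, had 130 and 1111 CPM. Of 24 genes listed for tumor neutrophils 23 reached a mean of 50 CPM, 6 of them at least 2-fold lower and 1 at least 2-fold higher (median -0.40). The higher gene was Spp1, osteopontin, with 996 CPM in liver and 121 CPM in primary neutrophils, under the 1667 and 451 CPM of free RNA. Arg1, the arginase of suppressive myeloid cells, had 767 CPM in liver and 61.7 CPM in primary neutrophils, but 46.9% of its liver UMIs lay in 1 barcode, and free RNA held 509 CPM in the liver library. Its log2 ratio lay between 0.86 (at least 100 UMIs of S100a8 plus S100a9) and 6.47 (free-RNA profile subtracted) over 16 settings.

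Few of the genes higher in liver neutrophils stood well above free RNA. Of the 373, 51 stood at 2 times the free-RNA level of the liver library or more, against 383 of the 403 lower genes in the primary library. Subtracting the free-RNA profile instead gave 406 higher and 398 lower. The largest free-RNA share was read from the keratins, at 29.6% (liver) and 14.6% (primary). The keratin limit of the rule holds that share down, so the subtraction cannot show whether the counts are free of such RNA. The largest ratios among those 51 genes are given for a mean of at least 100 CPM and without the granule genes of single barcodes. They were in Banf1 (182 and 57.8 CPM), Ltb (194 and 61.7 CPM) and Cmtm7 (257 and 87.6 CPM). Mien1 (150 and 51.8 CPM) and Ndufs5 (221 and 83.6 CPM) came next. Ltb, lymphotoxin beta, was held by 19.8% of liver and 6.41% of primary neutrophils, and by 57.0% and 43.9% of T cells.

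Within each library the neutrophils divided by Retnlg. A Retnlg UMI was present after thinning in 42 of 91 liver and 56 of 156 primary neutrophils. Median depths were 2146.5 UMIs with it and 2440 without it in the liver library, and 2741.5 and 2766.5 in the primary library. The genes most unlike in both libraries were picked after seeing the values, so the shares are a description. Wfdc21 was held by 69.0% of liver neutrophils with Retnlg and 14.3% without, and by 53.6% and 16% of primary ones. Osm was held by 38.1% and 2.04% in the liver library and by 58.9% and 18% in the primary library. Mmp8, the neutrophil collagenase, was held by 19.0% and 2.04% in the liver library and by 28.6% and 5% in the primary library.

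A larger share of the cells without Retnlg held Gngt2, Clec4n and Siglecf. Siglecf, a sialic acid receptor described on mouse tumor neutrophils, was held by 2 of 42 liver cells with Retnlg and 9 of 49 without, and by 3 of 56 and 15 of 100 primary cells. Ccl3 was held by 23.8% of liver cells with Retnlg and 34.7% without, and by 32.1% and 52% of primary cells.

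**Figure D4:**
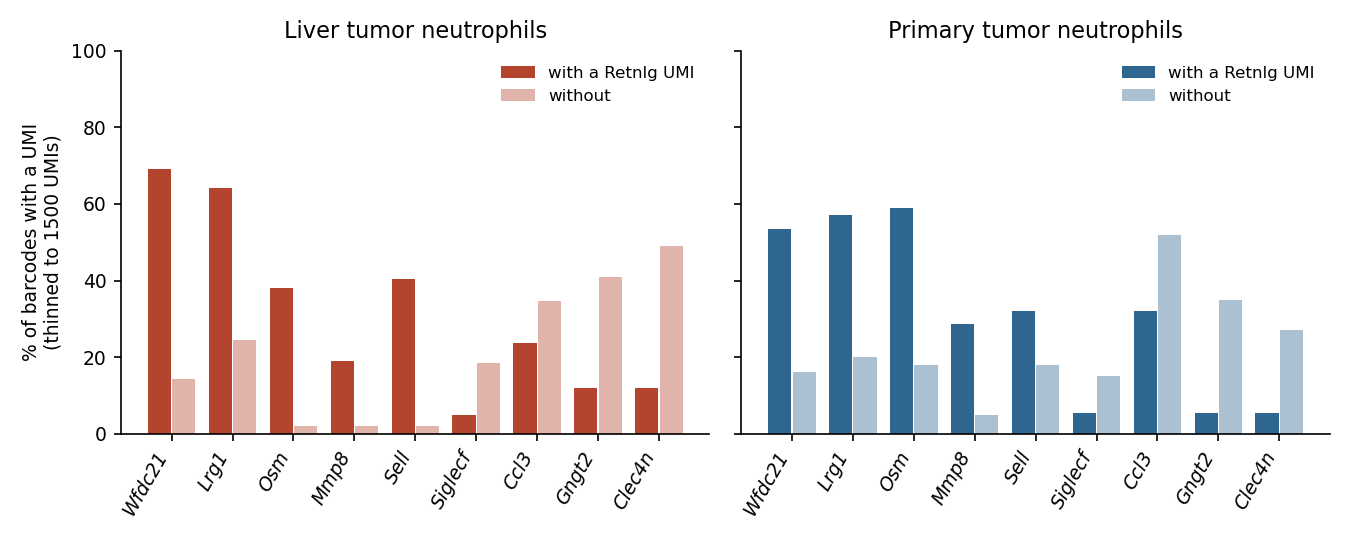
Share of neutrophils with a UMI of each gene after thinning to 1500 UMIs, in cells with a Retnlg UMI (dark bars) and without (light bars), liver tumor library (left) and primary tumor library (right). Wfdc21 stands at 69.0% and 14.3% (liver tumor), and at 53.6% and 16% (primary tumor).

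Bulk tumors, which the rule did not use, gave a replicated view of the same genes in all cells of the tissue. In such data fewer cells of a type and less RNA per cell cannot be told apart. Of 16487 genes tested with edgeR's quasi-likelihood test, 2755 (16.7%) were higher and 1032 (6.26%) lower in liver tumors at a Benjamini-Hochberg adjusted p under 0.05. Of 30 neutrophil genes, 20 passed the filter on low counts, and of these 6 were higher and 1 lower, with a median log2 change of 0.15. The other 10, among them Ly6g, Camp, Ngp, Mpo and Elane, were too low to be tested.

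The genes that define the cells did not pass. S100a8 had 7.04, 5.70 and 4.52 CPM in liver tumors and 2.93, 4.61 and 8.46 CPM in primary tumors (log2 change 0.11, SE 0.42, edgeR adjusted p = 0.878). The groups overlapped, with the highest and the lowest library both among the primary tumors. Csf3r had 8.80, 7.27 and 7.38 CPM in liver tumors and 3.17, 4.88 and 9.57 CPM in primary tumors (0.41, SE 0.41, edgeR adjusted p = 0.503). Cxcr2 differed by 0.01 (SE 0.40), Il1r2 by 0.07 (SE 0.31) and Retnlg by -0.05 (SE 0.56), with overlapping groups. Leaving out 1 library at a time moved the log2 change of S100a8 between -0.19 and 0.61 and that of Csf3r between 0.11 and 0.96, both highest without primary replicate 3. That of Retnlg moved between -0.45 and 0.52, lowest without primary replicate 1 and highest without primary replicate 2.

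The 6 genes that rose were Wfdc21, Prtn3, G0s2, Fpr1, Hdc and Fpr2. Fpr1, a receptor for formyl peptides of bacteria, had 7.04, 4.75 and 3.36 CPM in liver tumors and 0.32, 0.52 and 0.174 CPM in primary tumors. G0s2, an inhibitor of fat breakdown, had 38.8, 34.9 and 12.3 CPM in liver tumors and 1.70, 1.04 and 2.54 CPM in primary tumors. No library of either site overlapped the other in these genes, whereas Fpr1 held 27.7 CPM in liver neutrophils and 67.7 CPM in primary neutrophils, and G0s2 held 1612 and 3075 CPM. Wfdc21 had 732, 438 and 269 CPM in liver tumors and 0.393, 0.208 and 0.149 CPM in primary tumors, while neutrophils held 794 CPM of it in the liver library and 970 CPM in the primary library. Alb, the albumin of hepatocytes, had at least 26835 CPM in every liver tumor and at most 16.7 CPM in any primary tumor, and the part of liver tissue in these calls was not tested. Hdc had 5.02, 4.71 and 4.20 CPM in liver tumors and 2.09, 1.28 and 1.82 CPM in primary tumors (1.42, SE 0.32, edgeR adjusted p = 0.0161). It was not called without liver replicate 1 (adjusted p = 0.0655 in edgeR) or liver replicate 2 (0.0728). Fpr2 (edgeR adjusted p = 0.0497) was lost when any single library was left out. Asprv1, the gene that fell, had 0.176, 0.205 and 0.208 CPM in liver tumors and 0.467, 0.866 and 0.796 CPM in primary tumors. It was lost without any 1 liver replicate or primary replicate 3.

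Among Cxcr2 ligands and related genes, 8 of 10 were tested. Cxcl1 rose, with 68.4, 55.6 and 74.8 CPM in liver tumors and 3.66, 1.46 and 5.37 CPM in primary tumors (4.23, SE 0.45, edgeR adjusted p = 0.000338). The part of liver tissue in this rise was not tested. Cxcl5 fell, with 7.52, 6.56 and 10.5 CPM in liver tumors and 19.8, 12.7 and 39.96 CPM in primary tumors (-1.56, SE 0.42, edgeR adjusted p = 0.0319). The Cxcl5 call was lost without any 1 liver replicate or primary replicate 3, and without the last its log2 change was -0.99.

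Cxcl2 had 1.28, 1.26 and 1.40 CPM in liver tumors and 3.39, 1.28 and 5.65 CPM in primary tumors (-1.39, SE 0.52, edgeR adjusted p = 0.0927). Cxcl3 had 0.484, 0.307 and 0.923 CPM in liver tumors and 2.02, 0.589 and 2.51 CPM in primary tumors (-1.57, SE 0.62, edgeR adjusted p = 0.109). For both genes the groups overlapped through primary replicate 2, the lowest primary library. Without it edgeR called both, at adjusted p = 0.00624 for Cxcl2 and 0.0176 for Cxcl3. DESeq2 called Cxcl2 (adjusted p = 0.0426) but not Cxcl3 (adjusted p = 0.0678). With 1 library left out at a time, the log2 change of Cxcl2 lay between -1.78 and -0.84. That of Cxcl3 lay between -2.15 and -1.19. Over 14 settings the smallest falls were -0.61 for Cxcl2 and -0.33 for Cxcl3. Of the hypoxia and glycolysis list in bulk, 10 of 27 were lower and none higher by edgeR. Over all genes tested 6.26% were lower and 16.7% higher. Among the 10 was Hk2, with 61.6, 60.3 and 87.9 CPM in liver tumors and 108, 132 and 140 CPM in primary tumors. The part of liver tissue in the bulk differences of this list was not tested.

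**Figure D5:**
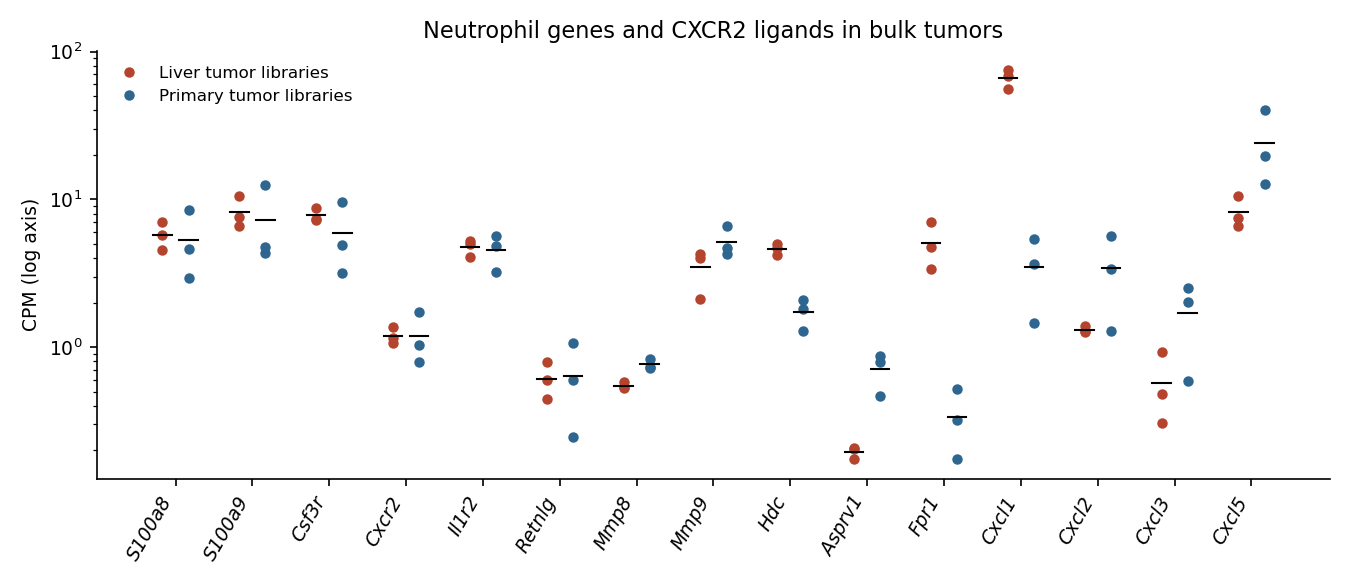
CPM on a log axis in each bulk library for neutrophil genes and Cxcr2 ligands, liver tumors (red) left of primary tumors (blue), with group means as black lines. S100a8, S100a9, Csf3r, Cxcr2 and Il1r2 overlap between the sites, while Cxcl1 is higher and Cxcl5 lower in the liver tumors.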

How the data were processed

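For single cells the authors deposited UMI counts of all listed barcodes. The labels name 3' v2 reagents, and the matrix header gives software version 3.0.0, per the file headers. Bulk raw counts and FPKM were deposited by the authors as tables of gene symbols. The submitters' processing notes name bcl2fastq, Cell Ranger and mm10, and the bulk aligner and counter are not given in the sources used here.

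The members and gene lists were chosen with earlier results of these data known. UMIs were summed per library over the rule's barcodes (scipy 1.17.1, Python 3.11.15), and CPM carry exact Poisson intervals. Shares have Clopper-Pearson intervals. A count of 0 was read as allowing 3 UMIs or cells, and ratios are liver over primary. Scrublet (scanpy 1.11.5, expected rate 6%) marked 1 of 7618 liver and 5 of 2277 primary barcodes. Both counts are far below the expected rate, so doublets were not assessed reliably in either library and were not removed. C1q-high macrophages, T cells and epithelial barcodes were gated by C1q, Cd3e and keratin UMIs and left out the neutrophils.

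Bulk counts were tested in edgeR 4.0.16 (R 4.3.3; filterByExpr, TMM, robust quasi-likelihood fit, two-sided, Benjamini-Hochberg). An SE is the log2 change divided by the root of the F statistic. CPM use TMM-scaled totals, and untested genes plain totals. DESeq2 1.42.0 and limma 3.58.1 on log2(FPKM + 1) and log2(FPKM + 0.1) were alternatives. Both scripts were tested on simulated data.

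Named genes were the 8 largest ratios in each direction with a mean of at least 100 CPM and 2 times the free-RNA level, the 4 most abundant members of each of 18 lists, the 10 genes most above other barcodes, a fixed set of 47 and, in bulk, called list members. Hk2, Hilpda, Egln3, Slc2a1, Osm, Nfil3, Cxcr4, Ccl9, Pkm and the genes of the Retnlg split were named after their values were seen.

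A result on 1 gene is not reported here.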

Additional observations from a re-analysis of the deposited data

Results flagged for a closer look

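In the liver library 213 barcodes met every criterion for neutrophils but the keratin limit, against 1 in the primary library. They lie outside the comparison between the sites, and they held a median of 253 UMIs of S100a8 plus S100a9 per 10000 UMIs, at a median depth of 2149 UMIs. Cxcl2 was held by 48.4% of them and Cd274 by 7.04% after thinning. Their part in the share of neutrophils is given by the other keratin limits.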

How the results depend on the processing

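The share of neutrophils moved with the gate. With at least 3000 UMIs it was 0.412% of called and 0.692% of non-epithelial barcodes in the liver library and 3.10% and 3.45% in the primary library. Keratin limits of 40 and 60, chosen after seeing the data, gave 3.40% and 3.83% of called and 5.78% and 5.43% of non-epithelial barcodes in the liver library. With no C1q and no keratin UMI allowed, 0 liver barcodes were left (0% of both), against 1.67% and 1.91% in the primary library, and gene ratios could not be formed. In the primary library at most 5% mitochondrial UMIs gave 8.54% and 10.3%, and at least 100 UMIs of S100a8 plus S100a9 gave 5.31% and 6.07%. The cause was not tested.

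Genes at least 2-fold higher and lower in liver neutrophils numbered 913 and 685 at a mean of at least 20 CPM, where more genes are tested, and 88 and 130 at 200 CPM, where fewer are. Leaving out mitochondrial, ribosomal protein, S100a8 and S100a9 UMIs from the totals gave 537 and 405. At 3000 UMIs the median of all genes moved by -0.13. Reversed without barcodes over 10000 UMIs, also an added choice, were Prtn3 (-0.37), Ngp (0.73) and Ltf (0.23). Cxcl2 kept a log2 ratio between -2.71 and -1.85 and Cxcl3 between -4.63 and -3.23 over 16 settings. Over the same settings Ccl4 lay between -4.68 and -2.96, Cxcr4 between -2.98 and -1.69, Cd274 between -3.67 and -2.60, Rsad2 between -4.91 and -2.62, Isg15 between -2.56 and -1.26 and Tnf between -0.96 and 0.61.

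In bulk, neutrophil and ligand genes numbered 7 higher and 2 lower by edgeR, 11 and 4 by DESeq2, and 1 lower at a mean of at least 1 CPM. Leaving out each library gave 5 to 10 higher and 0 to 5 lower, and 1810 to 3346 higher and 134 to 1468 lower over all genes. Deviations of same-numbered libraries correlated at -0.20, 0.28 and 0.10. With 3 values this cannot decide whether libraries of the same number were paired. With a replicate block 7 were higher and 3 lower, and 2703 and 873 over all genes, and Fpr2 was not called (adjusted p = 0.0767 in edgeR). Depth limits low genes, since the liver neutrophils hold 253075 UMIs in all.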
